A study of Mus musculus with 6 samples.

Results

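Interferons are secreted cytokines that cells release when nucleic acid sensors detect viral or misplaced RNA and DNA. They bind receptor pairs that signal through JAK kinases to STAT and IRF transcription factors, and these switch on a large set of interferon-stimulated genes whose products block viruses, process RNA and proteins and feed back on the pathway. Tumor cells can keep part of this program active without infection. The 44 genes described here are 4 interferon receptor chains, 5 transcription factors of the pathway, 9 nucleic acid sensors, adaptors and their regulators, 18 antiviral effectors and 8 other effectors or regulators. They were chosen by symbol, and all 44 were among the 19179 genes listed in each of 6 mRNA sequencing libraries.

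The libraries came from clones of 4T1, a mammary carcinoma line of mice, strain BALB/C. Clones were grown for 14 days from wells seeded with 1 cell, with no treatment named. The 3 stem-labelled libraries carry the tissue label breast cancer stem cell and the 3 other libraries the label breast cancer cell. The labels abbreviate the kinds of clone as SC and NSC and speak of 10 clones of each kind and 3 independent experiments. What separated the kinds, how many clones went into a library and which libraries shared an experiment are not stated. The p-values measure the spread between these libraries. In bulk RNA, fewer cells expressing a gene and less RNA per cell cannot be told apart.

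Levels are RPKM, reads scaled by gene length and by the authors' library total, and 1 read in a gene of 1 kilobase was worth 0.0311 to 0.0993 RPKM. Changes are differences of mean log2(RPKM + 1), stem-labelled minus other, ± SE, with n = 3 libraries per group. Genes with at least 1 RPKM in at least 3 libraries were tested with limma, and a Benjamini-Hochberg adjusted p under 0.05 counted as a call. A p that misses this threshold does not show that levels were equal. Reads in genes numbered 15357608 to 22838870 per library, and they were 0.658 to 0.757 of the library total implied by the unit (stem-labelled) and 1.23 to 1.53 of it (other). Changes of all genes followed gene length, so changes are also given, where it bears on a call, with length and GC trends removed (the correction) or with values divided by the reads summed over genes (rescaling). Of the mammary carcinoma markers, Epcam stood at 50.2 to 59.8 RPKM in all 6 libraries. Cdh1 stood higher in the stem-labelled libraries (59.8 to 77.8 RPKM against 13.7 to 17.5 RPKM) and Krt18 lower (298 to 490 RPKM against 930 to 1793 RPKM), as did Krt8, Krt7 and Krt19. Cldn7 stood at 0.0180 to 0.175 RPKM in the stem-labelled libraries and at 0.560, 0.536 and 29.0 RPKM in replicates 1 to 3 of the other clones. Of the leukocyte markers Ptprc stood at or below 0.00916 RPKM. The 7 carcinoma markers summed to 928 to 1432 RPKM (stem-labelled) and 2053 to 3734 RPKM (other). The 6 leukocyte markers listed summed to 12.4 to 40.0 and 6.55 to 29.4 RPKM, nearly all Cd68, and Csf1r was at 0 in 5 libraries. The fibroblast markers, mostly Pdgfra, summed to 1.68 to 3.39 RPKM (stem-labelled) and 0.396 to 1.01 RPKM (other). The dendritic and endothelial markers summed to at most 0.188 and 0.0895 RPKM in any library. The part of these markers in the results was not tested.

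Promoters of interferon-stimulated genes often carry the interferon-stimulated response element, bound by IRF9-containing complexes and by other IRFs, and genes that answer to interferon gamma often carry the gamma-activated site. RefSeq promoter windows on GRCm38.p6, from 250 bases before to 50 bases after a transcript start, were matched to 35 members. Those not matched were Ifi27, Mx1, Mx2, Usp18, Dhx58, Parp9, Parp14, Zbp1 and Tmem173. The response element core, here 2 copies of GAAA with any 2 bases between them and searched on both strands, lay in a window of 14 of the 35 members (40.0%), against 3.99% of the 27025 genes with a window. The gamma-activated site TTCNNNGAA, also searched on both strands, lay in a window of 11 of the 35 (31.4%), against 9.55% of all genes with a window. A match can overlap a match of the other motif, and it is a match of letters, not a binding site.

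The 150 bases before the start of 5 members are shown. Isg15, Bst2 and Oas1a are among the members with the widest differences between libraries, Ifit1 is an effector of low level that carries the same core, and Irf1 carries the other motif. Capitals mark response element cores in Isg15, Bst2, Oas1a and Ifit1 and the gamma-activated site in Irf1. The stretches of Bst2 and Oas1a also hold a match of the gamma-activated site that is not marked, in Bst2 overlapping a core. The stretches lie at chr4:156200819-156200968 (minus strand), chr8:71537473-71537622 (minus), chr5:120907526-120907675 (minus), chr19:34640739-34640888 (plus) and chr11:53769864-53770013 (plus).
Isg15: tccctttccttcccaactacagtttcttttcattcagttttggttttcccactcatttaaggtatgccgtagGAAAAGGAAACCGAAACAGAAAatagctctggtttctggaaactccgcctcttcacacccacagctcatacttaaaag
Bst2: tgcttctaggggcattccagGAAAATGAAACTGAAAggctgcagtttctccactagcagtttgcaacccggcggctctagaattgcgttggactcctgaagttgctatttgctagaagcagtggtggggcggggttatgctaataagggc
Oas1a: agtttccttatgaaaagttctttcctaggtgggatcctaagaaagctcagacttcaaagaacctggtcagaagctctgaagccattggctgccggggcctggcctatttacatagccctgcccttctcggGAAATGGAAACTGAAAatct
Ifit1: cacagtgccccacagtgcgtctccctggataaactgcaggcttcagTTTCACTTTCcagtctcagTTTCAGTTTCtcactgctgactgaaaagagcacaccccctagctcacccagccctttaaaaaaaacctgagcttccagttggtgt
Irf1: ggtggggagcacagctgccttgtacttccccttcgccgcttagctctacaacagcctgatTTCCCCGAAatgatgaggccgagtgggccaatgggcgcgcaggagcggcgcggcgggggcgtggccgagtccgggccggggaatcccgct
In Isg15 the capitals are 3 overlapping cores and in Bst2 and Oas1a 2 overlapping cores, while Ifit1 holds 2 separate ones on the opposite strand.

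Of the 44 members, 33 passed the filter on low values. Stem-labelled clones had 7 of these called higher and 8 called lower, and 18 were not called. Over all 10097 tested genes 29.9% were called higher and 25.4% lower (55.2% in either direction), so neither count stands out from the background. The receptors Ifnar1, Ifngr1 and Ifngr2, the transcription factor Stat2, the RNA editor Adar and the ubiquitin ligases Trim25 and Rnf213 rose. The antiviral effectors Oasl1, Ifi35, Bst2, Ifi27, Ifitm3, Ifitm2 and Isg20 and the transcription factor Irf3 fell. The median change was 0.15 over the tested members and 0.11 over all tested genes. Groups did not overlap for 16 of the 33, 8 with the stem-labelled clones above and 8 below, where 35.7% and 27.8% of all tested genes were so placed (63.5% in either direction).

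**Figure D1:**
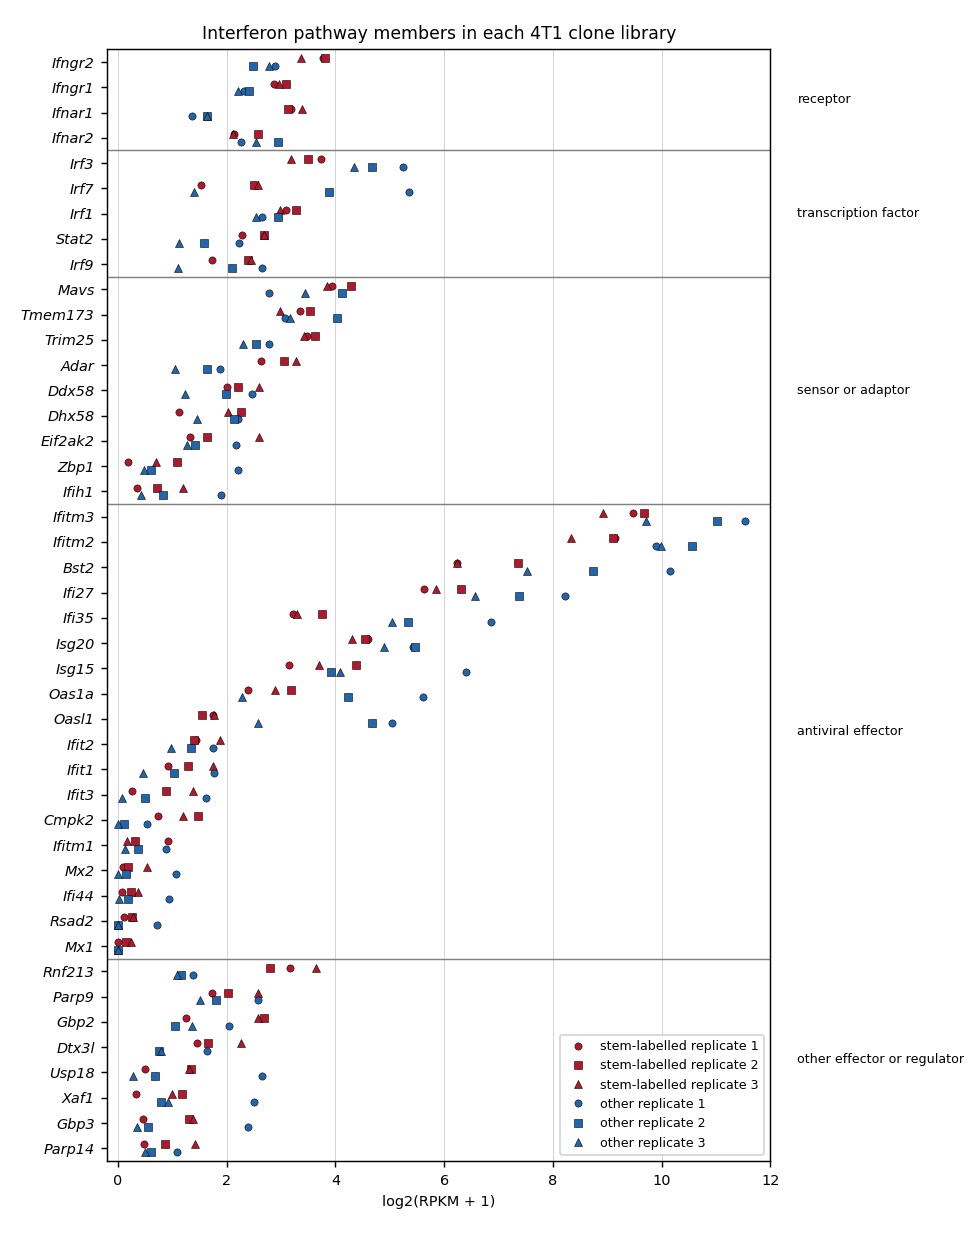
Level of each of the 44 members as log2(RPKM + 1) in each library, by role and by mean level; red symbols are stem-labelled and blue symbols other libraries, with a shape per replicate. For most antiviral effectors and sensors the blue circle (replicate 1 of the other clones) lies to the right of the other blue symbols.

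Called members of either direction differed in gene length. Members called lower had lengths from 627 to 3442 bases, a range in which 38.0% of tested genes were called lower. Members called higher had lengths from 2847 to 16888 bases, a range in which 40.4% were called higher. Across the 33 tested members Spearman's rho between change and length was 0.77, and across all tested genes 0.49, both over genes that share the same libraries. After the correction rho over the members was 0.41. Then 2 of the 33 members were higher and 4 lower, where 22.3% and 24.9% of all genes were (47.2% in either direction). On rescaling to summed reads 16 were higher and 2 lower, against 58.7% and 12.3% of all genes (71.0% in either direction), since the median of all genes moved from 0.11 to 0.86.

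**Figure D2:**
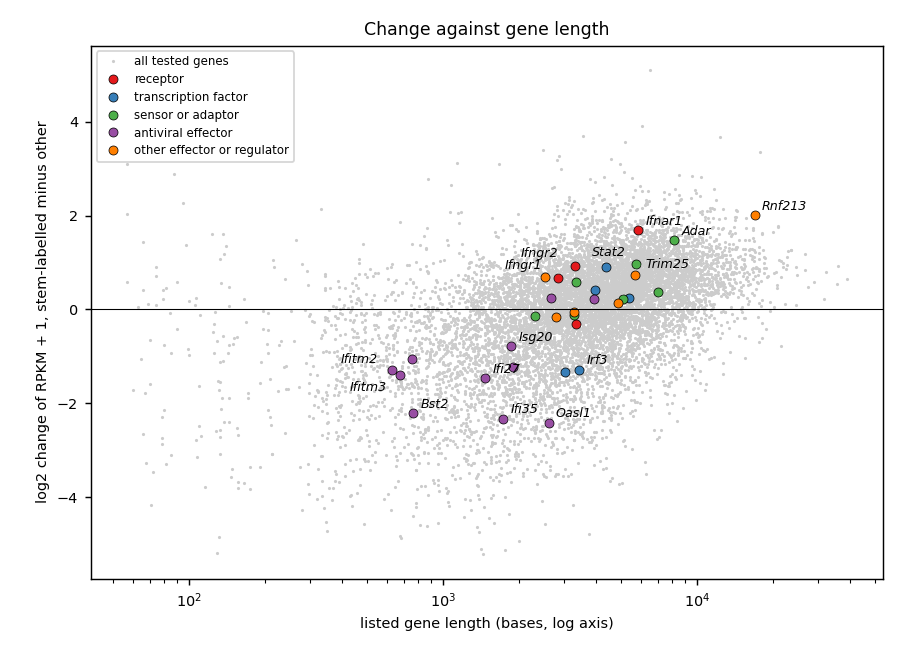
Log2 change of RPKM + 1 (stem-labelled minus other) against the listed gene length on a log axis, with all 10097 tested genes in grey and the 33 tested members coloured by role; called members are named. The called antiviral effectors lie below 0 among the shorter genes, and Rnf213, the longest member, has the largest increase on this scale.

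Transcripts of the receptor chains for type I interferon and for interferon gamma were present. Ifnar1 and Ifnar2 are the chains of the type I receptor, and Ifngr1 and Ifngr2 those of the interferon gamma receptor. Ifnar1 (ENSMUSG00000022967, chromosome 16, 91485238 to 91507441 on GRCm38, as for all positions here) stood at 8.13, 7.72 and 9.41 RPKM in stem-labelled replicates 1, 2 and 3 and at 1.56, 2.12 and 2.11 RPKM in the same order of the other clones, the order used throughout. The groups lay far apart, with means of 8.42 ± 0.884 and 1.93 ± 0.323 RPKM (SD). The change was 1.69 ± 0.19 (adjusted p = 0.000182), 0.84 after the correction (adjusted p = 0.00319) and 2.41 on rescaling. Ifnar2 (chromosome 16, 91372783 to 91405589) went the other way in level, with 3.41, 4.94 and 3.34 RPKM against 3.78, 6.66 and 4.83 RPKM. Its groups overlapped and it was not called (-0.30 ± 0.24, adjusted p = 0.297), but it was called lower after the correction (-0.78, adjusted p = 0.0117) and stood at 0.46 on rescaling. Gm21970, annotated on the same strand, shares 9.46% of the exon bases of Ifnar2.

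Ifngr2 stood at 12.7, 13.0 and 9.29 RPKM against 6.38, 4.61 and 5.88 RPKM (0.93 ± 0.22, adjusted p = 0.00533). Ifngr1 stood at 6.27, 7.51 and 6.80 RPKM against 3.95, 4.32 and 3.59 RPKM (0.67 ± 0.18, adjusted p = 0.0127). Neither pair of groups overlapped. Both changes were smaller and not called after the correction (0.47 and 0.37, adjusted p = 0.0947 and 0.0894). Leaving out stem-labelled replicate 2 ended the Ifngr1 call (0.61, adjusted p = 0.0559).

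The transcription factors moved in both directions. Irf3, which is activated by phosphorylation downstream of the sensors, fell. It stood at 12.2, 10.3 and 8.03 RPKM against 37.1, 24.3 and 19.2 RPKM. All 3 stem-labelled values were below the lowest of the others, and the change was -1.28 ± 0.27 (adjusted p = 0.00351), -1.15 after the correction (adjusted p = 0.00463) and -0.40 on rescaling (adjusted p = 0.217). Irf3 (ENSMUSG00000003184, chromosome 7, 44997648 to 45002848) overlaps Bcl2l12 on the opposite strand over 2.56% of its exon bases, and the strand of counting was not stated.

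Irf7, the interferon-induced factor that amplifies type I interferon production, had the widest span within a group among the tested members on the log2(RPKM + 1) scale. In the other clones it stood at 39.7 RPKM in replicate 1, 13.8 in replicate 2 and 1.64 in replicate 3, a 24.1-fold span, and in the stem-labelled clones at 1.90, 4.64 and 4.99 RPKM. The groups overlapped through replicate 3 of the other clones. The change of -1.34 ± 0.80 was not called (adjusted p = 0.181), and without that library it was -2.41 (adjusted p = 0.000813). Leaving out replicate 1 of the other clones instead gave -0.44 (adjusted p = 0.598). Stat2, which acts with IRF9 in type I signalling, rose from 3.68, 1.99 and 1.17 RPKM to 3.86, 5.45 and 5.41 RPKM (0.91 ± 0.28, adjusted p = 0.0219). The highest of the other libraries was close to the lowest stem-labelled one. The Stat2 call was lost after the correction (0.30, adjusted p = 0.436) and on leaving out stem-labelled replicate 2, stem-labelled replicate 3 or other replicate 3 (adjusted p = 0.0667, 0.0715 and 0.0620).

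Irf9, a DNA-binding factor that acts with STAT2, stood at 2.29, 4.26 and 4.47 RPKM against 5.28, 3.25 and 1.14 RPKM, with overlapping groups (0.24 ± 0.37, adjusted p = 0.599). Irf1, a factor induced early by interferon gamma, stood at 7.49, 8.69 and 6.92 RPKM against 5.25, 6.71 and 4.77 RPKM. All stem-labelled values of Irf1 were above the others, by a small margin, and the change of 0.41 ± 0.20 was not called (adjusted p = 0.111). On rescaling both were called higher (0.93 and 1.22, adjusted p = 0.0341 and 0.000819), where the median of all genes was 0.86. After the correction their changes were -0.55 and -0.06.

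Cytosolic sensors of RNA were present at low levels in both kinds of clone. Ddx58 encodes RIG-I, Ifih1 MDA5 and Dhx58 LGP2, helicases that recognise foreign RNA, and Mavs the mitochondrial adaptor through which RIG-I and MDA5 signal. Ddx58 stood at 3.01, 3.61 and 5.03 RPKM against 4.52, 2.97 and 1.35 RPKM (0.37 ± 0.31, adjusted p = 0.332). Dhx58 stood at 1.18, 3.82 and 3.07 RPKM against 3.62, 3.36 and 1.73 RPKM (-0.12 ± 0.32, adjusted p = 0.765). Both overlapped between the groups, with replicate 3 lowest among the other clones. Ifih1 was below the filter, at 0.275, 0.646 and 1.29 RPKM against 2.73, 0.777 and 0.341 RPKM, so that replicate 1 of the other clones was the highest library.

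Mavs (chromosome 2, 131234063 to 131248025) was the most abundant of the sensors and adaptors listed, at 14.4, 18.6 and 13.4 RPKM against 5.84, 16.3 and 9.80 RPKM. The groups overlapped through replicate 2 of the other clones, and the change of 0.59 ± 0.32 was not called (adjusted p = 0.148). Mavs was called higher without that library (0.92, adjusted p = 0.0183), on rescaling (1.45, adjusted p = 0.00186) and with upper-quartile scaling (0.83, adjusted p = 0.0420). On rescaling 58.7% of all tested genes were called higher. Mavs was not called after the correction (0.37, adjusted p = 0.271) or without replicate 1 of the other clones (0.25, adjusted p = 0.460). Tmem173, which encodes STING, the adaptor of cytosolic DNA sensing, stood at 9.21, 10.6 and 6.87 RPKM against 7.40, 15.3 and 7.98 RPKM (-0.13 ± 0.29, adjusted p = 0.709). Zbp1, a sensor of Z-form nucleic acid, was below the filter, at 0.139, 1.11 and 0.616 RPKM against 3.59, 0.524 and 0.394 RPKM.

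Trim25, a ubiquitin ligase that acts on RIG-I, rose from 5.83, 4.82 and 3.94 RPKM to 10.1, 11.3 and 9.73 RPKM (0.97 ± 0.20, adjusted p = 0.00310), without overlap. Its change after the correction was 0.13 (adjusted p = 0.591). Adar, which edits adenosine to inosine in double-stranded RNA and so hides it from MDA5, rose from 2.66, 2.09 and 1.06 RPKM to 5.20, 7.29 and 8.67 RPKM (1.47 ± 0.26, adjusted p = 0.00147). The groups did not overlap. The corrected change was 0.65 (adjusted p = 0.0557), and 16.8% of the exon bases of Adar lie opposite Chrnb2. Eif2ak2, which encodes the double-stranded RNA-activated kinase PKR, stood at 1.49, 2.12 and 5.01 RPKM against 3.495, 1.68 and 1.42 RPKM and was not called (0.23 ± 0.35, adjusted p = 0.599).

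**Figure D3:**
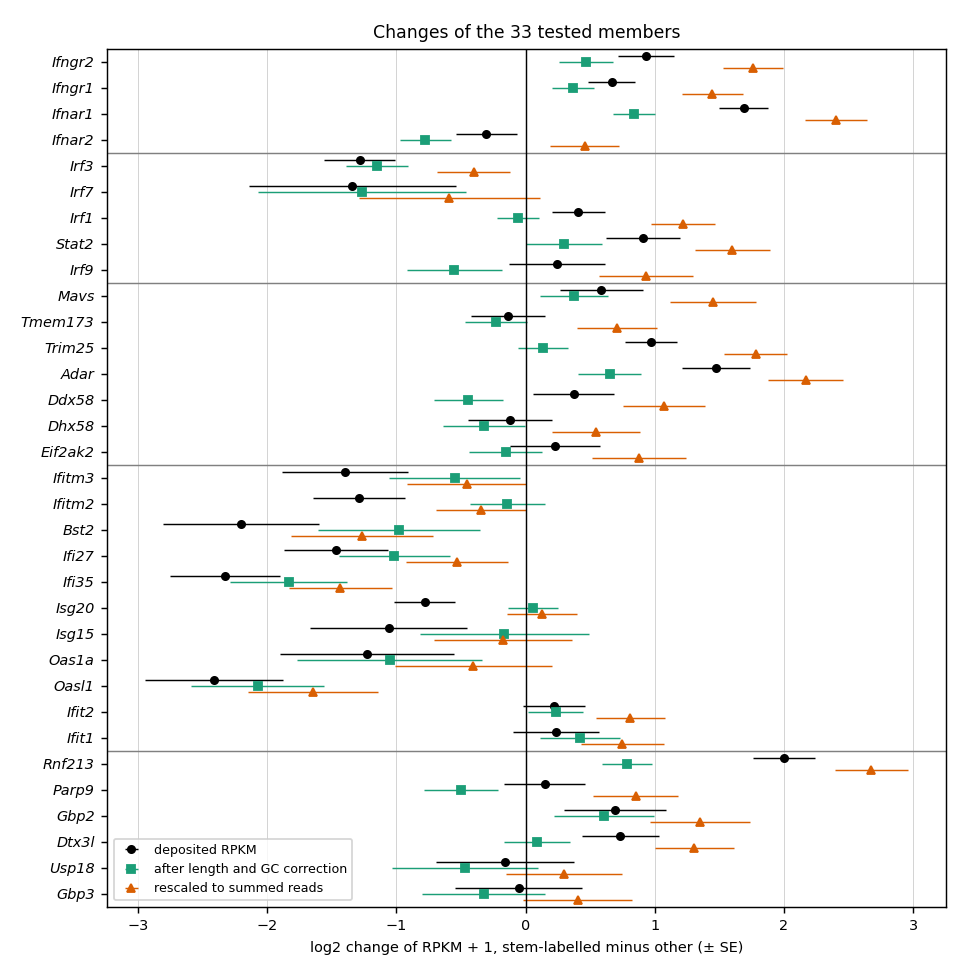
Log2 change of RPKM + 1 (stem-labelled minus other, bars ± SE) for the 33 tested members in order of role, on the deposited scale (black), after the length and GC correction (green) and rescaled to summed reads (orange). Oasl1 and Ifi35 lie below 0 and Ifnar1 and Rnf213 above 0 on all 3 scales.

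Of the 18 antiviral effectors, 11 were tested, of which 7 fell, 0 rose and 4 were not called, where 25.4% of all tested genes fell. In the length range of the members called lower (627 to 3442 bases) 38.0% of tested genes fell. The upper end of this range is the length of Irf3, and the effectors that fell were 627 to 2608 bases long. The share of all tested genes in that narrower range was not counted. After the correction 2 of the 11 were lower and 0 higher, against 24.9% and 22.3% of all tested genes. On rescaling 2 were lower and 1 higher, against 12.3% and 58.7% of all tested genes. The median change of the 11 was -1.29, or -0.55 after the correction and -0.40 on rescaling. The 11 had a median length of 1727 bases, against 3634 for all tested genes. Oasl1, an OAS-like protein that inhibits Irf7 translation, fell most. It stood at 2.37, 1.92 and 2.38 RPKM against 32.0, 24.4 and 4.95 RPKM. The stem-labelled values were tightly grouped and all lay below the lowest of the others. The change was -2.41 ± 0.53 (adjusted p = 0.00427), -2.07 after the correction (adjusted p = 0.0102) and -1.65 on rescaling (adjusted p = 0.0104).

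Ifi35, an interferon-induced leucine zipper protein, stood at 8.36, 12.4 and 8.83 RPKM against 115, 39.5 and 32.0 RPKM, without overlap. It changed by -2.33 ± 0.43 (adjusted p = 0.00161), -1.83 after the correction (adjusted p = 0.00961) and -1.44 on rescaling (adjusted p = 0.00605). Gm11626 lies opposite 16.8% of its exon bases. Oasl1 (ENSMUSG00000041827, chromosome 5, 114923240 to 114937915) and Ifi35 (ENSMUSG00000010358, chromosome 11, 101448407 to 101458698) were the members called lower on all 3 scales.

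Bst2, which encodes tetherin, a membrane protein that holds budding virus on the cell, stood at 73.9, 162 and 74.5 RPKM against 1144, 428 and 183 RPKM. The highest stem-labelled library and the lowest other library were close. It changed by -2.20 ± 0.60 (adjusted p = 0.0121), and the call was lost after the correction (-0.98, adjusted p = 0.224) and on rescaling (-1.27, adjusted p = 0.0539). Ifi27, an interferon-induced protein of mitochondrial and nuclear membranes, stood at 48.3, 78.1 and 56.7 RPKM against 299, 165 and 94.0 RPKM. Its change was -1.46 ± 0.40 (adjusted p = 0.0123), -1.01 after the correction (adjusted p = 0.0794) and -0.53 on rescaling (adjusted p = 0.237). Isg20, an exonuclease of single-stranded RNA, stood at 23.3, 22.2 and 18.6 RPKM against 41.8, 43.2 and 28.7 RPKM (-0.78 ± 0.23, adjusted p = 0.0181). Its change was 0.06 after the correction and 0.13 on rescaling, and leaving out stem-labelled replicate 2 or 3 ended the call (adjusted p = 0.0528 and 0.0648).

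Ifitm3 and Ifitm2, membrane proteins that block virus entry, were the most abundant members. Ifitm3 stood at 710, 813 and 487 RPKM against 2984, 2073 and 835 RPKM (-1.40 ± 0.49, adjusted p = 0.0343). The lowest other library was almost level with the highest stem-labelled one. The Ifitm3 call was lost without any single library other than replicate 3 of the other clones (adjusted p = 0.0548 to 0.118) after the correction (-0.55, adjusted p = 0.395) and on rescaling (-0.46, adjusted p = 0.385). Ifitm2 stood at 566, 550 and 322 RPKM against 952, 1514 and 1021 RPKM (-1.29 ± 0.36, adjusted p = 0.0129), and was not called after the correction (-0.14, adjusted p = 0.712) or on rescaling (-0.35, adjusted p = 0.382). Gm45717, on the same strand, covers 40.9% of the exon bases of Ifitm2, and 48.5% of its 50-base stretches occur in another gene.

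Isg15, the ubiquitin-like modifier, stood at 7.80, 19.9 and 11.95 RPKM against 84.0, 14.0 and 15.9 RPKM. Replicate 1 of the other clones stood alone, the other 5 libraries overlapped, and the change was not called (-1.06 ± 0.61, adjusted p = 0.162; -0.26 without that library). Oas1a, an oligoadenylate synthetase that activates RNase L, stood at 4.21, 8.06 and 6.36 RPKM against 47.8, 17.9 and 3.85 RPKM (-1.23 ± 0.67, adjusted p = 0.147). Without replicate 3 of the other clones Oas1a was called lower (-2.11, adjusted p = 0.000988). Leaving out replicate 1 of the other clones instead gave -0.44 (adjusted p = 0.502). Oas1a has 57.6% of its 50-base stretches in common mainly with Oas1g and Oas1b. The RNA-binding Ifit1 stood at 0.899, 1.44 and 2.35 RPKM against 2.40, 1.03 and 0.374 RPKM (0.24 ± 0.33, adjusted p = 0.565). Ifit2, of the same family, stood at 1.70, 1.65 and 2.68 RPKM against 2.35, 1.53 and 0.961 RPKM (0.22 ± 0.24, adjusted p = 0.462).

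The remaining 7 antiviral effectors were below the filter. Ifit3, Ifi44, Ifitm1, Mx2 and Rsad2 (viperin) had group sums of 40 to 145 reads (stem-labelled) and 16 to 78 reads (other). Their mean levels in this order were 0.884, 0.173, 0.418, 0.214 and 0.160 RPKM (stem-labelled) and 0.846, 0.355, 0.409, 0.401 and 0.213 RPKM (other). The groups overlapped for each, and a read was worth more RPKM in the other libraries. Ifit3 has 51.2% of its 50-base stretches in common with Ifit3b. Mx1, a GTPase that blocks influenza virus, had 0, 11 and 21 reads (stem-labelled) and 0 in each other library. Cmpk2, a nucleotide kinase that neighbours Rsad2, had 60, 172 and 132 reads against 17, 3 and 0 reads. All stem-labelled levels of Cmpk2 (0.659, 1.77 and 1.28 RPKM) were above the others (0.446, 0.0754 and 0 RPKM), and with no filter it was called higher (0.92, adjusted p = 0.0326).

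Among the other effectors and regulators, Rnf213, a very large ubiquitin ligase that coats bacteria and lipid droplets, had the largest increase of the tested members on the deposited and rescaled scales, while after the correction that of Ifnar1 was larger (0.84 against 0.78). It stood at 7.98, 5.96 and 11.5 RPKM against 1.59, 1.22 and 1.12 RPKM, without overlap (2.0 ± 0.24, adjusted p = 0.000243). The corrected change was 0.78 (adjusted p = 0.0102) and the rescaled change 2.67. Rnf213 (ENSMUSG00000070327, chromosome 11, 119393100 to 119487418) is 16888 bases long, the longest member, and A930037H05Rik lies opposite 8.74% of its exon bases. Rnf213 and Ifnar1 were the members called higher on all 3 scales.

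Dtx3l and Parp9 form a ubiquitin ligase and ADP-ribosyl transferase complex and lie head to head on chromosome 16, overlapping on opposite strands. Dtx3l stood at 1.74, 2.13 and 3.82 RPKM against 2.13, 0.674 and 0.729 RPKM (0.73 ± 0.30, adjusted p = 0.0619), and was called without replicate 1 of the other clones (1.02, adjusted p = 0.0146). After the correction Dtx3l was not called (0.09, adjusted p = 0.793). Parp9 stood at 2.30, 3.09 and 4.99 RPKM against 4.96, 2.49 and 1.85 RPKM (0.15 ± 0.31). The guanylate-binding GTPase Gbp2 stood at 1.38, 5.44 and 4.96 RPKM against 3.10, 1.05 and 1.58 RPKM (0.69 ± 0.39, adjusted p = 0.162) and was called higher once stem-labelled replicate 1 was left out (1.15, adjusted p = 0.0149). Its corrected change was 0.61 and not called (adjusted p = 0.221). Usp18, which removes ISG15 and restrains the type I receptor, stood at 0.403, 1.52 and 1.46 RPKM against 5.23, 0.605 and 0.214 RPKM. Gbp3 stood at 0.376, 1.46 and 1.60 RPKM against 4.27, 0.468 and 0.274 RPKM. For Usp18 and Gbp3 replicate 1 of the other clones was again the highest of all 6 libraries. The apoptosis factor Xaf1 was below the filter, at 0.255, 1.25 and 0.987 RPKM against 4.65, 0.720 and 0.890 RPKM. Parp14, an ADP-ribosyl transferase, was also below it, at 0.389, 0.815 and 1.67 RPKM against 1.11, 0.527 and 0.406 RPKM, with overlapping groups.

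The members differed between libraries of the same group in a shared order. Among the other clones, replicate 1 was the highest of the 3 libraries for 25 of the 33 tested members (75.8%), where it was highest for 32.2% of all tested genes. Replicate 3 was the lowest for 24 of the 33 (72.7%), against 36.7% of all tested genes, and the highest for 0. Among the stem-labelled clones, replicate 1 was the lowest for 19 of the 33 (57.6%), against 27.4% of all tested genes. These counts changed little on the other scales. After the length and GC correction they were 26, 26 and 21, and on rescaling to summed reads 24, 28 and 23, where replicate 3 of the other clones was lowest for 49.6% of all genes. Of the 10 untested members with any reads in the other libraries, replicate 1 was the highest for all 10. The share over all untested genes was not counted, and reads were as few as 11, 4 and 1 in these libraries (Ifitm1).

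The span from the lowest to the highest of the other libraries had a median of 0.998 on the log2(RPKM + 1) scale over the tested members and 0.53 over all tested genes. For 14 of the 33 it was above the value that 10% of all tested genes exceed (1.23). The widest were Irf7 (3.94), Oas1a (3.33), Bst2 (2.64), Isg15 (2.50), Oasl1 (2.47) and Usp18 (2.36). Of the receptor chains, Ifngr1 (0.21), Ifnar1 (0.29) and Ifngr2 (0.40) had spans below the median of all tested genes and Ifnar2 (0.68) one above it. Among the stem-labelled libraries the members' median span was 0.68, against 0.44 for all tested genes, and Gbp2 (1.43), Eif2ak2 (1.27) and Isg15 (1.25) were widest. Reads of all 44 members together were 0.366, 0.297 and 0.127% of the reads in genes in replicates 1 to 3 of the other clones and 0.218, 0.258 and 0.238% in those of the stem-labelled clones. Abundant members weighed heavily in this sum. In the other clones Ifitm3 held 24114, 17491 and 5702 of 61598, 45614 and 19577 member reads, and Ifitm2 7117, 11811 and 6445. Reads in genes over the library total were 1.41, 1.23 and 1.53 in the same 3 other libraries, and their part in this order was not tested.

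**Figure D4:**
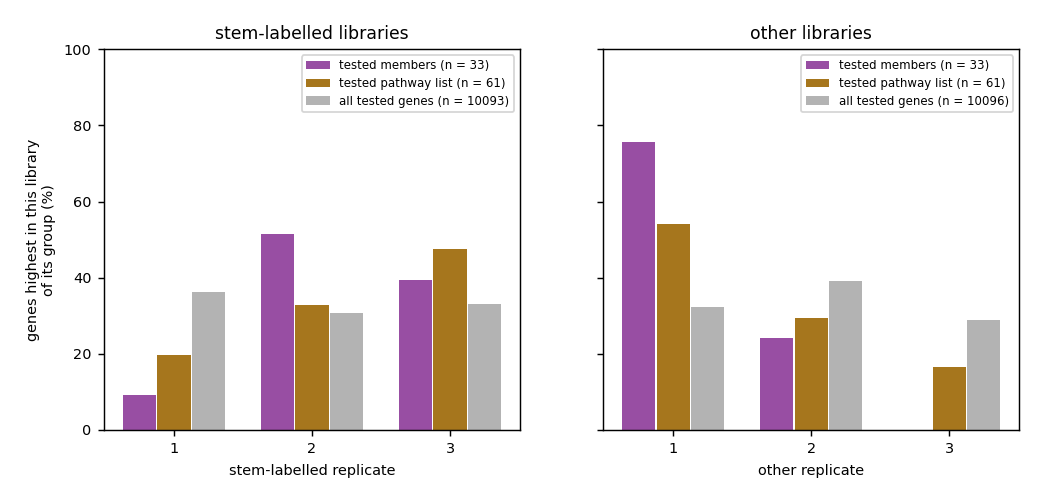
Share of genes (%) for which each replicate was the highest of the 3 libraries of its group, for the tested members, the further pathway genes and all tested genes. Replicate 1 of the other clones was highest for 75.8% of the members and 54.1% of the further pathway genes.

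Further genes of interferon signalling and nucleic acid sensing were taken from a list of 85 that the files hold, none of them a member. Of 61 tested, 20 rose, 9 fell and 32 were not called, where 29.9% of all tested genes rose and 25.4% fell. Their median change was 0.14, near that of all genes. After the correction 12 were higher and 11 lower, where 22.3% and 24.9% of all tested genes were. On rescaling 35 were higher and 5 lower, where 58.7% and 12.3% of all tested genes were. Without stem-labelled replicate 1, 2 or 3 the count that rose was 12, 13 and 13, and leaving out other replicate 1 gave 4 that fell. Replicate 1 of the other clones was the highest of its group for 33 of the 61 (54.1%) and replicate 3 the lowest for 34 (55.7%). The largest increases called were those of Slfn2, a Schlafen family gene, and Tlr2, a receptor for bacterial lipoproteins. Slfn2 stood at 17.9, 49.98 and 36.3 RPKM against 5.80, 1.64 and 2.21 RPKM (3.09 ± 0.43, adjusted p = 0.000417; 3.35 after the correction). Tlr2 stood at 5.57, 15.6 and 14.0 RPKM against 2.20, 1.55 and 0.824 RPKM (2.26 ± 0.36, adjusted p = 0.000816). Irf2bp2, a transcriptional cofactor, was level with Tlr2 (2.26 ± 0.24, adjusted p = 0.000148) and had the larger change on rescaling (3.10 against 2.94).

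The largest decreases were those of Rnaseh2c, a subunit of the RNase H2 that removes RNA from DNA, and the chemokine Ccl5. Rnaseh2c stood at 58.5, 45.4 and 26.8 RPKM against 493, 289 and 461 RPKM (-3.25 ± 0.35, adjusted p = 0.000149; -2.11 after the correction). Ccl5 stood at 7.28, 4.39 and 2.65 RPKM against 112, 96.3 and 5.90 RPKM (-2.95 ± 0.90, adjusted p = 0.0199). Its groups overlapped through replicate 3 of the other clones, and leaving out stem-labelled replicate 3, other replicate 1 or other replicate 2 ended the call (adjusted p = 0.0775, 0.0775 and 0.0587). After the correction Ccl5 was not called (-2.16, adjusted p = 0.0938). Of the kinases that carry the signal, Tbk1, which phosphorylates IRF3, rose (0.97 ± 0.22, adjusted p = 0.00486). Jak1, a kinase of both receptors, rose by 0.70 ± 0.24 (adjusted p = 0.0292). The Jak1 call was lost without replicate 1 or 3 of either group (adjusted p = 0.0525 to 0.102), and the corrected change was -0.19. Its partner Tyk2 was not called (0.33 ± 0.29, adjusted p = 0.345). Jak2, the other kinase of the interferon gamma receptor, stood at 5.26, 10.3 and 25.2 RPKM against 4.17, 2.62 and 3.57 RPKM and was called higher on all 3 scales (1.48 ± 0.44, adjusted p = 0.0178; 1.07 after the correction; 2.27 on rescaling). Without stem-labelled replicate 3, its highest library, the Jak2 change was 0.93 (adjusted p = 0.0369), and with no filter it was not called (adjusted p = 0.0821).

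Mb21d1, which encodes the DNA sensor cGAS, stood at 3.23, 2.17 and 3.42 RPKM against 1.18, 0.974 and 1.16 RPKM, without overlap (0.89 ± 0.19, adjusted p = 0.00391; 0.46 after the correction, adjusted p = 0.0468). The feedback inhibitor Socs1 stood at 13.4, 11.0 and 7.92 RPKM against 40.9, 28.8 and 27.3 RPKM (-1.50 ± 0.26, adjusted p = 0.00110), with a corrected change of -0.16 that was not called. The interferon gene Ifnb1 had 0, 1 and 3 reads (stem-labelled) and 0 in each other library.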

How the data were processed

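The authors deposited RPKM, 1 table per library. Value times gene length is a whole multiple of a step for 100% of values up to 1000 reads (tolerance 0.01). Values are thus reads over gene length times a constant per library. The check does not show which total the authors divided by. The submitters' processing notes name Bowtie2 2.0.6, TopHat2 2.0.9 and mm9 without roles, while gene positions in the tables lie on GRCm38: of 19179 identifiers 99.6% were in GENCODE M21, 80.6% of them with the same start and end. The counting program and strand are not given in the sources used here.

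Tissue labels gave the groups, and titles the replicate numbers. limma 3.58.1 in R 4.3.3 was run on log2(RPKM + 1) of all 6 libraries with a trend in the variance. The filter of 1 RPKM in 3 libraries left 10097 genes, over which p-values were adjusted (two-sided, Benjamini-Hochberg). The correction subtracted from each library natural splines (5 degrees of freedom each) of log2 gene length and of the GC content of the longest GENCODE transcript. The fit was tested on simulated data. Library orders on the corrected and rescaled values were added after seeing the data. Shared sequence is the percent of 50-base stretches found in a transcript of another GENCODE gene. Promoters are RefSeq windows. The members and gene lists were chosen with earlier results of these data known. The rule for named genes accounts for every member and names, of the further pathway genes, the 2 largest calls in each direction and 6 listed genes, of which 1 is not reported here. Ifnb1, Jak2 and Irf2bp2 are outside the rule and were chosen after their values were seen. Alternatives were each library left out, a replicate block, other scalings, filters and pseudocount, limma without the trend, limma-voom on recovered reads and a minimum change.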

Additional observations from a re-analysis of the deposited data

How the results depend on the processing

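Leaving out single libraries gave 5 to 8 members called higher and 6 to 10 called lower, and for the further pathway genes 12 to 20 higher and 4 to 8 lower. Over all genes, 5926 were higher and 1245 lower on rescaling, 1405 higher with a mean RPKM of at least 5, 1487 higher with a change of at least 1 on the log2 scale, and 1985 higher when the correction was joined to the replicate block. The members called higher and lower were 16 and 2 on rescaling and 2 and 4 after the correction, with or without the replicate block. With a mean of at least 5 RPKM 4 were higher, with a change of at least 1 3 were higher, and with no filter 5 were lower. The further pathway genes called higher were 35 on rescaling, 12 after the correction, 11 with the block added to it, 12 with a mean of at least 5 RPKM and 11 with a change of at least 1, and those called lower were 5 on rescaling and 5 with no filter.

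Changes that turned direction were mostly of uncalled members. After the correction, with or without the replicate block, they were 0.059 for Isg20, -0.059 for Irf1, -0.55 for Irf9, -0.44 for Ddx58, -0.50 for Parp9, -0.15 for Eif2ak2 and -0.19 for Jak1. On rescaling they were 0.13 for Isg20, 0.30 for Usp18, 0.55 for Dhx58, 0.40 for Gbp3, 0.46 for Ifnar2 and 0.71 for Tmem173. With upper-quartile scaling Dhx58 stood at 0.066, Gbp3 at 0.065 and Tmem173 at 0.10. With a pseudocount of 0.1 Usp18 stood at 0.037 and Gbp3 at 0.15, and with limma-voom on recovered reads Gbp3 stood at 0.049. Leaving out single libraries gave ranges that cross 0, of -0.075 to 0.58 for Ifit1, -0.18 to 0.59 for Irf9, -0.62 to 0.12 for Usp18, -0.36 to 0.22 for Dhx58, -0.088 to 0.45 for Parp9, -0.43 to 0.24 for Gbp3, -0.14 to 0.50 for Eif2ak2 and -0.31 to 0.17 for Tmem173. The cause was not tested.

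Same-numbered libraries of the groups had correlations of their deviations of -0.125, 0.0255 and -0.0848, so they share a number and no pairing was shown. With the replicate number as a block 7 members were higher and 8 lower, no member's call changed, and Jak1 missed the threshold (adjusted p = 0.0555). The filter on low values left out 11 members, and at these depths counts near 0, as for Mx1 and Rsad2, do not show that a transcript was absent.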
